A study of Mus musculus with 9 samples.

Results

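The genes described here, in R848-stimulated mouse pDCs, were 10 genes, most of them of the pDC surface: *Siglech*, *Bst2*, *Ly6c2*, *Klra17*, *Lag3*, *Lair1*, *Tyrobp*, *Ptprc*, *Itgax* and *Pacsin1*. They were chosen by symbol as markers of the pDC surface, receptors that restrain IFN release, the adaptor *Tyrobp* and the integrin *Itgax*. *Pacsin1* was listed with them, although its product is not a surface receptor. Each gene matched 1 row among the 52550 genes listed. The experiment had 9 samples of splenic pDCs from C57BL/6 mice, 3 for each *Ncf1* genotype, WT (G/G), heterozygous knockin (G/A) and homozygous knockin (A/A). All samples were sorted as CD11c int SiglecH+ PDCA1+ cells and stimulated with R848, a TLR7/-8 ligand, for 12 hours. The knockin is a germline change, so every cell of an A/A mouse carries it, and there was no unstimulated sample. The values of A/A replicate 1 were used here. The other 8 samples were not analysed here, so no value has a replicate error and no genotype was compared.

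pDCs carry a set of surface receptors that tune how much type I IFN they release. Some signal through an adaptor with an ITAM, a tyrosine motif that recruits the kinase Syk, and in pDCs this route is known to dampen the IFN response to TLR7 and TLR9 ligands. Others carry an ITIM of their own, a tyrosine motif that recruits phosphatases such as SHP-1. SiglecH belongs to the first kind and pairs with the adaptor DAP12, the product of *Tyrobp*. Ly49Q, the product of *Klra17*, and LAIR1 belong to the second.

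The deposited values gave 31408298 reads assigned to genes, over 17664 genes with reads. Reads not assigned to a gene are not known here. Levels are given as CPM, reads of a gene per 1000000 such reads. For comparisons between genes TPM is given as well, computed here as reads per kilobase of annotated exon scaled to a total of 1000000. Intervals are Wilson 95% intervals and cover counting error only. PCR copies were not removed by molecular identifiers, so reads may not be independent and the intervals may be too narrow. A gene below 3 reads (0.0955 CPM) was taken as not detected. The knocked-in gene *Ncf1* had 1079 CPM, which does not tell the alleles apart. The study used female mice, yet *Ddx3y* on chromosome Y had 3215 reads and *Xist* was listed at 0, so the library went against the stated sex.

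The coding motifs behind this grouping were read from GENCODE M21 transcripts (GRCm38), taking the longest coding sequence of each gene. The first lines below are shown because they are the signalling motifs of the receptors and their adaptor. Capitals mark the codons of the motif tyrosines, and bases are counted from the A of the start codon.

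Tyrobp ITAM, bases 274 to 318: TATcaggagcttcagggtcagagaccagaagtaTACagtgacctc
Klra17 ITIM, bases 16 to 33: gtcactTATtcaactgtg
Lair1 ITIM, bases 676 to 693: gtgacgTATatccagctg
Lair1 ITIM, bases 763 to 780: agcacaTATgcagccatc

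*Tyrobp* was the only member with an ITAM match, at residues 92 to 106 of 114, and 2.89% of 21523 coding genes held such a match. *Lair1* had 2 ITIM matches, both within its last 38 residues, and *Klra17* had 1 match, at residues 6 to 11 of 273. *Siglech*, *Lag3* and *Ly6c2* had no match to either motif. The ITIM pattern is short, and 49.1% of coding genes held it somewhere, so a match alone does not mark a signalling motif. The matches in *Klra17* and *Lair1* are called ITIMs from prior knowledge of these receptors. The single matches in *Bst2*, *Ptprc*, *Pacsin1* and *Tyrobp*, the last overlapping its ITAM, and the 3 in *Itgax* were read as letters only.

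All 10 members were above the floor, as were 31.0% of all genes listed, 92.1% of the genes with reads and 99.2% of the protein-coding genes with reads, so the floor sets few coding genes apart here or in the lists below. Each member had at least 10 CPM, against 44.4% of the genes with reads and 61.4% of the protein-coding genes with reads. At least 100 TPM was reached by 8 of the 10, against 7.63% of the genes with reads and 10.3% of the protein-coding genes with reads. Their median was 359.7 CPM and 203.6 TPM. Among the genes with reads their median percentile was 97.3 by CPM, without length, and 95.4 per kilobase. The members were picked as genes of this cell type, so a high place was built into the choice. Together they held 0.569% of all reads assigned to genes, and *Bst2* and *Ly6c2* gave 50.1% of that.

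**Figure D1:**
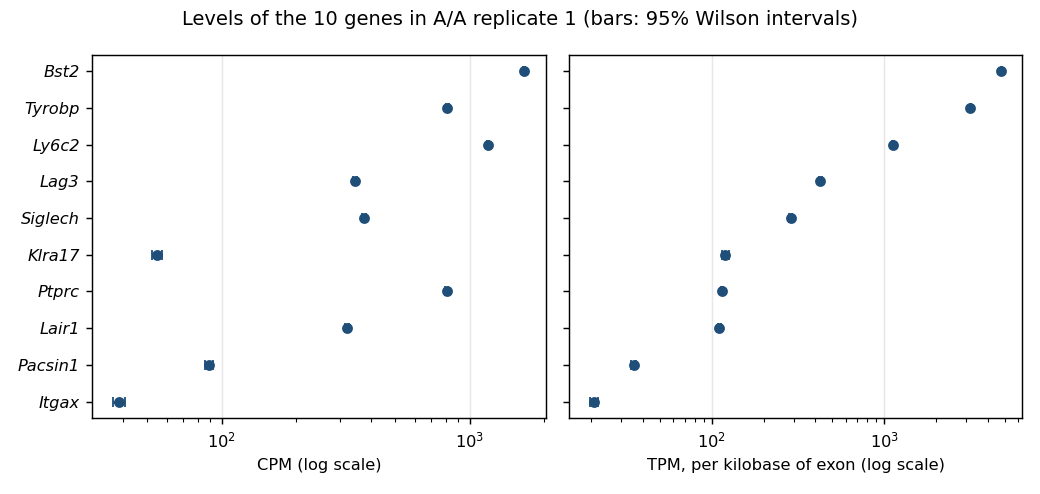
Levels of the 10 members in A/A replicate 1, as CPM on the left and as TPM, per kilobase of exon, on the right, both on log axes, with points for the values and bars for the Wilson 95% intervals. Per kilobase the members ran from 20.8 TPM for *Itgax* to 4774 for *Bst2*, and *Ptprc* and *Lair1* stood lower among the members than they did by CPM.

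*Bst2* encodes PDCA1, also called tetherin, a membrane protein that holds budding virions at the cell surface and is itself induced by IFN. It had 52054 reads, or 1657 CPM (95% CI, 1643 to 1672), on chromosome 8 (71534255 to 71537456, minus strand of GRCm38). Its 903 exon bases are few, and per kilobase it led the members with 4774 TPM (95% CI, 4733 to 4815) and stood at rank 21 of all genes. That was 16.6 times the level of *Siglech* per kilobase (95% CI, 16.3 to 17.0). With the longest transcript of each gene as its length the ratio was 12.9. Its protein was part of the sorting gate, as were those of *Siglech* and *Itgax*. The presence of these 3 transcripts was therefore not an independent check of the cell type. The cells were sorted by protein before stimulation, and RNA was read after it. How far the sort set these transcript levels was not tested.

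The stretch upstream of the *Bst2* start site is printed because *Bst2* was the only member whose promoter window held a match to an IFN-stimulated response element, the DNA motif bound by IRF and STAT complexes. The sequence is from RefSeq (GRCm38.p6, chr8:71537573-71537687, minus strand), covers 215 to 101 bases before the start site, and shows the matches in capitals.

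Bst2 upstream: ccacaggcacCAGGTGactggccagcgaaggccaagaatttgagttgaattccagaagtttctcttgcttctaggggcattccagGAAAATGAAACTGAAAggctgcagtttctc

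The searched letters were GAAANNGAAA for the response element and CAGGTG for an E-box, the motif of the pDC regulator TCF4 and its relatives, on both strands of 300-base windows around annotated start sites. The *Bst2* window held 2 overlapping copies of the first, which 3.44% of 32851 windows held. It also held 1 E-box, as did that of *Siglech*, while 20.2% of all windows held one. RefSeq windows matched 8 of the 10 members, and those of *Ly6c2*, *Klra17*, *Lair1*, *Ptprc*, *Itgax* and *Pacsin1* held neither run of letters. These are matches of letters, and no binding was measured.

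*Siglech*, a sialic-acid-binding-type lectin used to define mouse pDCs, had 11735 reads, or 374 CPM (95% CI, 367 to 380), on chromosome 7 (55768178 to 55778925, plus strand). Per kilobase it had 287 TPM, in place 5 among the members. It was the highest of 17 listed receptors that can pair with *Tyrobp* and made up 59.8% of their summed TPM. *Klrk1*, which encodes the NK receptor NKG2D, came next with 92.8 TPM, followed by *Cd300c2* with 56.1. *Siglech* was 3.09 times as high as *Klrk1* (95% CI, 3.01 to 3.18), and 2.06 times with the longest transcripts. *Trem1*, *Trem3*, *Pilrb2*, *Siglec15*, *Klra4* and *Klra8* were listed at 0. Of the other Siglec genes on the lists, *Cd33* had 28.3 TPM, *Siglecg* 11.3, *Siglec1* 6.31, *Cd22* 2.84 and *Siglecf* 1.78, and *Siglece* was listed at 0.

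*Tyrobp*, the DAP12 adaptor, had 25515 reads, or 812 CPM (95% CI, 802 to 822), on chromosome 7 (30413760 to 30417585, plus strand). With 667 exon bases it had 3168 TPM (95% CI, 3129 to 3207), after *Bst2* among the members. The adaptor was 11.0 times as high as *Siglech* per kilobase (95% CI, 10.8 to 11.3) and 6.59 times the sum of the 17 listed receptors. With the longest transcripts the ratio to *Siglech* was 8.38. *Fcer1g*, the ITAM adaptor of Fc receptors, was slightly higher, at 3318 TPM. The ratio of *Tyrobp* to *Fcer1g* was 0.955 (95% CI, 0.939 to 0.970), and 0.834 with the longest transcripts. *Hcst*, which encodes the related adaptor DAP10, had 58 reads and 6.65 TPM.

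All 24 genes of the ITAM list were above the floor, with a median of 101 TPM. The 2 ITAM adaptors made up 66.8% of the summed TPM of that list. The Src-family kinase genes *Fyn* and *Lyn*, also on that list, had 424 and 227 TPM. *Syk*, the kinase that binds a phosphorylated ITAM, had 1425 reads and 12.6 TPM, and *Zap70*, its T cell relative, had 21 reads and 0.581 TPM. *Tyrobp* was 251 times as high as *Syk* per kilobase (95% CI, 238 to 265) and 161 times with the longest transcripts. The adaptor *Blnk* had 74.4 TPM, the phospholipase gene *Plcg2* 204 and *Pik3ap1*, which encodes the PI3K adaptor BCAP, 204.

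*Klra17* encodes Ly49Q, an ITIM receptor for MHC class I that differs from most of its family in being found on pDCs and myeloid cells. It had 1725 reads, or 54.9 CPM (95% CI, 52.4 to 57.6), on chromosome 6 (129831154 to 129876672, minus strand), and 120 TPM. Of the 11 Ly49 genes listed, 8 were at 0, and *Klra17* made up 97.7% of the summed TPM of the family. *Klra2* had 42 reads and *Klra7* had 15, so *Klra17* was 65.4 times as high as *Klra2* per kilobase (95% CI, 48.2 to 91.1). The coding sequences of *Klra17* and *Klra7* were 79.9% identical, and no window of 50 bases in the *Klra17* transcripts occurred in another gene. *H2-K1*, a gene for the class I ligand, had 4725 TPM.

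*Lair1*, an ITIM receptor for collagens and C1q, had 10021 reads, or 319 CPM (95% CI, 313 to 325), on chromosome 7 (4003402 to 4063204, minus strand). By reads it exceeded *Klra17* 5.81 times, but its 7475 exon bases brought it to 111 TPM, and per kilobase the ratio of *Lair1* to *Klra17* was 0.926 (95% CI, 0.880 to 0.975). With the longest transcript of each gene as its length the ratio was 1.01, so their order per kilobase depends on the gene model. The collagen genes *Col1a1*, *Col4a1* and *Col17a1* were listed at 0. *C1qa*, *C1qb* and *C1qc* had 23.8, 62.3 and 17.2 TPM. C1q is made by macrophages as a rule, and the macrophage markers *Csf1r*, *Adgre1* and *Vcam1* had 22.1, 20.1 and 3.30 TPM. The part of such cells in the C1q values was not tested.

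Among 28 other inhibitory receptors that could be read, 25 were above the floor, with a median of 17.3 TPM, lower than *Klra17* and *Lair1*. *Pirb*, an ITIM receptor for MHC class I, led them with 552 TPM and was 4.97 times as high as *Lair1* (95% CI, 4.86 to 5.08). *Lilr4b* had 344 TPM and *Cd300a* 118. *Pirb* and *Lilr4b* have close paralogs, so reads may have been split between copies. The symbol *Lilrb4a* appeared on 2 rows, with 8198 and 43613 reads, and was not used. Of the phosphatase genes, *Ptpn6*, which encodes SHP-1, had 1050.2 TPM and *Ptpn11*, which encodes SHP-2, 8.78, a ratio of 120 (95% CI, 112 to 129). *Dok1* had 200 TPM and *Inpp5d*, which encodes the lipid phosphatase SHIP1, 64.9. All 11 genes of the phosphatase list were above the floor, with a median of 13.9 TPM. The third of that list, *Ptprcap*, had 81.6 TPM, but 76.0% of its exon bases overlapped *Rps6kb2* on the opposite strand.

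**Figure D2:**
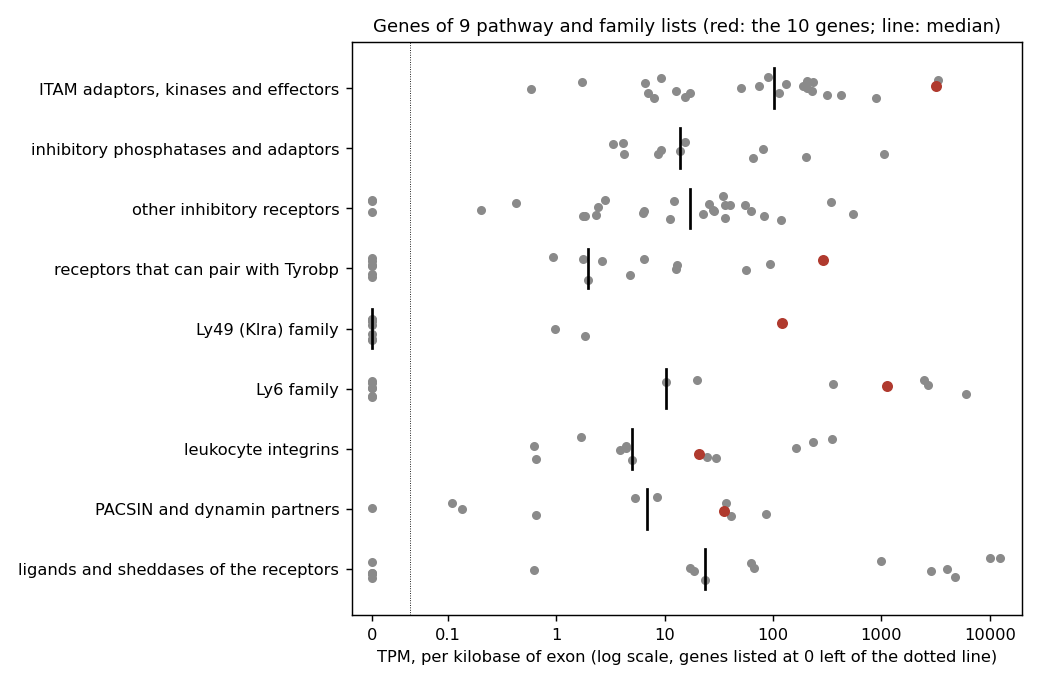
TPM, per kilobase of exon, on a log axis for each gene of 9 pathway and family lists in A/A replicate 1, with members in red, other genes in grey, list medians as vertical lines and genes listed at 0 left of the dotted line. *Siglech* and *Klra17* were the highest genes of their lists, and *Ly6c2*, *Itgax* and *Pacsin1* were not.

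*Lag3* encodes a receptor for MHC class II that is best known as a checkpoint of exhausted T cells and is also found on pDCs. It had 10859 reads, or 346 CPM (95% CI, 339 to 352), on chromosome 6 (124904361 to 124911705, minus strand). Per kilobase it had 426 TPM (95% CI, 418 to 435), 1.48 times *Siglech* (95% CI, 1.45 to 1.52), although by reads it was lower than *Siglech* and with the longest transcripts the ratio was 1.06. Other checkpoint receptors were lower. *Btla* had 82.4 TPM, *Havcr2* 36.0, *Pdcd1* 12.2 and *Tigit* 2.43, and *Ctla4* was listed at 0. *Lag3* was 5.17 times as high as *Btla* (95% CI, 4.98 to 5.38).

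In the same library the T cell markers *Bcl11b*, *Cd3g*, *Cd3d* and *Cd3e* were listed at 0. The NK markers *Ncr1*, *Klrb1c*, *Eomes*, *Gzma* and *Prf1* were also listed at 0, beside the values of *Lag3* and *Klrk1*, while *Klre1* and *Tbx21* of that list had 39 and 32 reads. Of the other T cell markers, *Cd28* had 14.7 TPM, *Cd4* 12.5, *Lat* 4.64 and *Cd5* 0.202. Genes of the class II ligand were high, with 9972 TPM for *H2-Ab1* and 4037 for *H2-Aa*, while *Fgl1*, the gene of a soluble ligand, was listed at 0. The galectin genes *Lgals3* and *Lgals1* had 2859.8 and 993 TPM. The protease genes *Adam17* and *Adam10*, whose products cut LAG3 from the surface, had 66.7 and 18.8 TPM.

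*Ly6c2* encodes a GPI-anchored Ly6C protein of pDCs and inflammatory monocytes. It had 37376 reads, or 1190.0 CPM (95% CI, 1178 to 1202), on chromosome 15 (75108158 to 75111970, minus strand), and 1129.7 TPM. Within the Ly6 family it came after *Ly6d* with 6001 TPM, *Ly6a* with 2691 and *Ly6e* with 2487. *Ly6d* marks lymphoid progenitors and pDCs, and *Ly6a*, the Sca-1 gene, is known to be induced by IFN. *Ly6i* had 361 TPM, *Ly6c1* had 402 reads and 19.9 TPM, and 6 of the 13 family genes read were at 0, *Ly6g* of neutrophils among them.

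*Ly6c1* is the closest relative, and the beginning of both coding sequences is shown to let the differences between them be seen. In bases 1 to 150 of the coding sequence, with differing bases in capitals, the genes differ at 6 of the 37 positions that differ over the whole coding sequence.

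Ly6c2: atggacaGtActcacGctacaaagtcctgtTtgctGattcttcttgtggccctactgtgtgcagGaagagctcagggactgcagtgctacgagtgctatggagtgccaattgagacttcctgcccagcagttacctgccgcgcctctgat
Ly6c1: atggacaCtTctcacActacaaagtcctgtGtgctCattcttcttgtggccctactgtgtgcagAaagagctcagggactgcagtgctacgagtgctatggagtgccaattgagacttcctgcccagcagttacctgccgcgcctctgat

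Over 396 aligned coding bases they were 90.7% identical. Of the 50-base windows in *Ly6c2* transcripts, 14.5% occurred in another gene (395 windows, 379 of them in *Ly6c1*), and of the 150-base windows 1.42% did. *Ly6c2* was 56.9 times as high as *Ly6c1* per kilobase (95% CI, 51.6 to 62.9) and 29.3 times with the longest transcripts. How reads in shared stretches were assigned is not given in the sources used here, so the level of *Ly6c1* is the less certain of the pair.

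*Ptprc* encodes CD45, the receptor phosphatase of leukocytes, whose B220 form marks mouse pDCs and B cells. It had 25384 reads, or 808 CPM (95% CI, 798 to 818), on chromosome 1 (138062861 to 138175708, minus strand). By CPM it was level with *Tyrobp*, but its merged exons span 18313 bases and it had 115 TPM. With the longest transcript as the length it had 293 TPM, 2.55 times as much, and then stood above *Klra17* and *Lair1*. Values per gene do not separate the B220 form from the others. *Csk*, the kinase that opposes CD45 on Src-family kinases, had 15.4 TPM. The B cell markers *Cd79b*, *Ms4a1*, *Cd79a* and *Ebf1* had 6.71, 1.29, 4.15 and 0.297 TPM, and *Pax5* and *Cr2* were listed at 0.

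*Itgax* encodes the CD11c integrin chain, high on conventional DCs and intermediate on pDCs. It was the lowest member, with 1209 reads, or 38.5 CPM (95% CI, 36.4 to 40.7), and 20.8 TPM (95% CI, 19.7 to 22.1), on chromosome 7 (128129547 to 128150657, plus strand). *Itgb2*, its β chain partner, was 7.80 times as high (95% CI, 7.33 to 8.31). Of 13 integrin genes read, all were above the floor. *Itgb1* led with 347 TPM, *Itgb7* had 236 and *Itgb2* 163. *Itgal* had 24.8 TPM, 1.19 times *Itgax* (95% CI, 1.11 to 1.28). The symbol *Itgam*, for the myeloid CD11b chain, stood on 2 rows with 33 and 15 reads. *Itgad*, with 93 reads, shared 8.02% of the 50-base windows of *Itgax*. The conventional DC markers *Ccl22* and *Fscn1* had 1507 and 369.6 TPM, *Clec9a* had 58.4, *Flt3* 57.0, *Zbtb46* 32.3, *Clec10a* 2.11 and *Xcr1* 1.00, and *Cd209a* was listed at 0. The part of conventional DCs in the *Itgax* value was not tested. In bulk samples a smaller number of cells of a type and less RNA per cell cannot be told apart.

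*Pacsin1* encodes an F-BAR protein that bends membranes in endocytosis, known from neurons and required for full IFN release by pDCs. It had 2784 reads, or 88.6 CPM (95% CI, 85.4 to 92.0), and 35.3 TPM (95% CI, 34.0 to 36.7), on chromosome 17 (27655509 to 27711106, plus strand). Its coordinates here differ from those in GENCODE M21, which gave its exon length. *Pacsin2*, the widely expressed paralog, was 1.15 times as high per kilobase (95% CI, 1.09 to 1.21) but lower by reads. *Pacsin3* had 34 reads. *Dnm2*, the common dynamin gene, led the list with 86.6 TPM and *Synj1* had 36.5, while *Dnm1*, the neuronal dynamin gene, had 7 reads and *Cobl* was listed at 0. Of the 10 genes, 9 were above the floor, with a median of 6.87 TPM over the list.

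Per kilobase the order of the members was *Bst2*, *Tyrobp*, *Ly6c2*, *Lag3*, *Siglech*, *Klra17*, *Ptprc*, *Lair1*, *Pacsin1* and *Itgax*. The intervals of *Klra17* and *Ptprc* overlapped, at 114 to 126 and 113 to 116 TPM, so with merged exons their order was not detectable at this depth. With the longest transcripts the ratio of *Klra17* to *Ptprc* was 0.328, so their order also depends on the gene model. The intervals of *Ptprc* and *Lair1* did not overlap, but the ratio was 1.03 (95% CI, 1.01 to 1.06), and a change of gene model moved it to 3.01. The highest and lowest members differed 229-fold. No exon base of a member overlapped an exon of another gene on either strand.

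**Figure D3:**
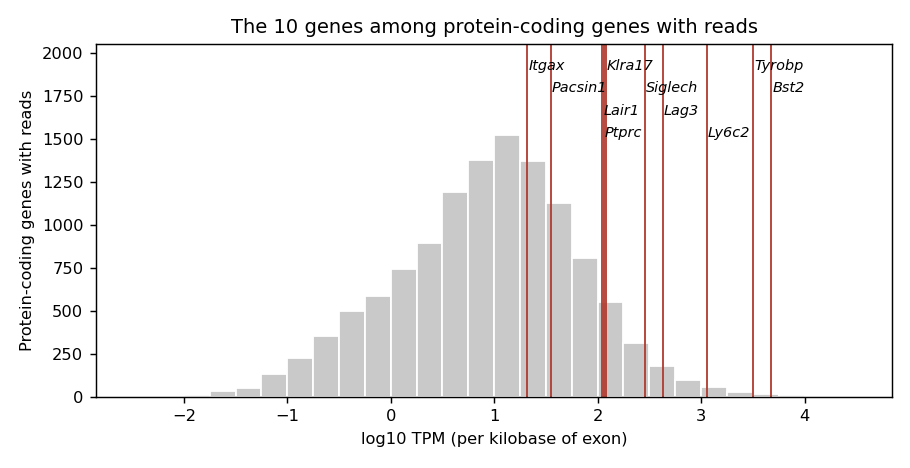
Number of protein-coding genes with reads in bins of log10 TPM, per kilobase of exon, in A/A replicate 1, with a red line at the level of each member. *Itgax* stood at percentile 65.7 and *Pacsin1* at 75.7 of these genes, and the other 8 members lay at or above percentile 90.7.

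The pDC label was checked against its markers. Of the 12 pDC markers, 4 are members, and the products of *Siglech* and *Bst2* were sorted on, so the 8 others were read on their own. Of these, 7 were above the floor, with a median of 194 TPM. *Ly6d* had 6001 TPM, *Spib* 2076, *Irf8* 1094, *Cox6a2* 251, *Ccr9* 138, *Runx2* 55.7 and *Tcf4* 34.0, and *Cd209d* was listed at 0. The merged exons of *Tcf4* span 27382 bases. It had 358 CPM, and 86.9 TPM with its longest transcript as the length. Among the other lists, 7 of 8 conventional DC markers were above the floor (2027 TPM summed), 9 of 9 macrophage (156), 5 of 7 B cell (13.5), 4 of 8 T cell (32.1), 3 of 7 neutrophil (103.9), 3 of 6 erythroid (12.3) and 2 of 7 NK cell markers (1.99). Of the conventional DC sum, *Ccl22* gave 1507 TPM and *Fscn1* 369.6. All 12 pDC markers, members and sorted genes included, summed to 14865 TPM. The list medians were 44.7 TPM for conventional DCs and 17.2 for macrophages. Those of T cells and erythroid cells were 0.101 and 0.0517 TPM, and those of neutrophils and NK cells were 0.

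**Figure D4:**
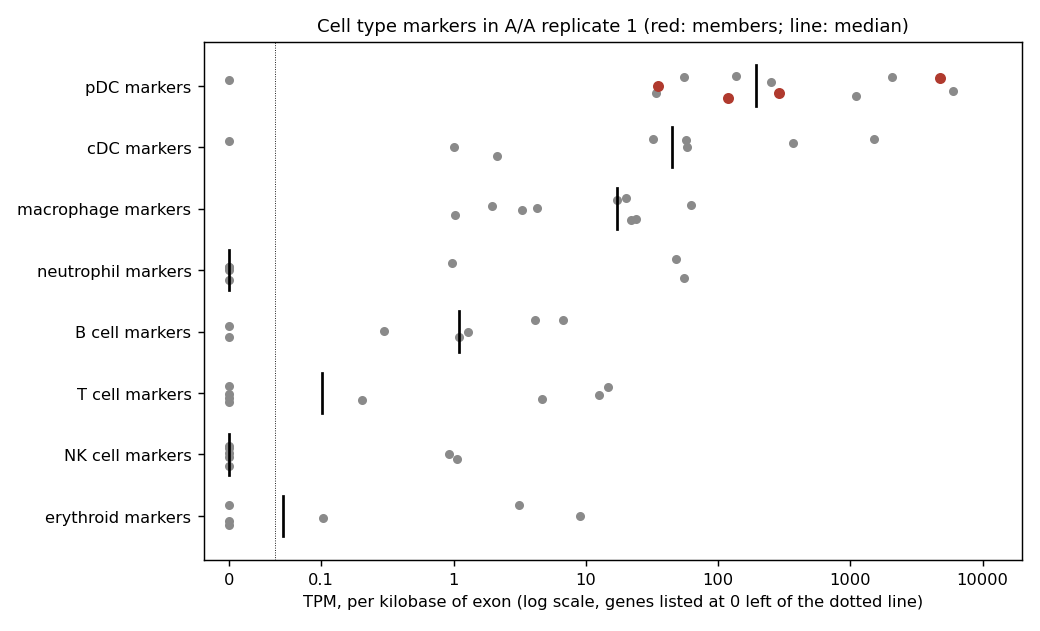
TPM, per kilobase of exon, on a log axis for each marker of 8 cell types in A/A replicate 1, with members in red, list medians as vertical lines and genes listed at 0 left of the dotted line. The pDC list had the highest median of the 8, 194 TPM, and 5 of the 7 NK cell markers were listed at 0.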

How the data were processed

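RNA-Seq values of A/A replicate 1 were used. Per the labels, HISAT2 and StringTie and the builds mm8 and mm10 are named in the submitters' processing notes, without roles. Coordinates were those of GRCm38. The counting tool and the use of strand are not given in the sources used here. The authors deposited a normalized signal per gene, without a stated unit. Each value above 0 was a whole multiple of 1.19 within a tolerance of 0.01 reads (100% of values), so reads were recovered by dividing by that step. Gene identifiers matched GENCODE M21 for 99.7%, and merged exons gave the lengths for TPM. Percentiles count ties by their midpoint. Ratios have exact (Clopper-Pearson) binomial intervals, for counting error only, and 30 were computed. The choice of gene length moved several of these ratios beyond their intervals. The recovery was tested on 3 simulated libraries of 52550 genes, built as whole counts divided by a single factor, and returned 100% of them. Because they were built that way, these libraries could not show whether the deposited values are reads. Python 3.11.15, numpy 2.4.6, pandas 2.3.3, scipy 1.17.1 and matplotlib 3.10.9 were used.

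No test between genotypes was made. The members and lists were chosen with earlier results of these data known. The genes named are the members, and of each list the 3 highest per kilobase and the genes at 0 that act with a member. Others, and the ratios, were chosen after their values were seen. Some genes under this rule are not reported here. Alternatives were the floor, the set of genes behind percentiles, the exon length and the pseudocount. With 1 library, no likeness of pattern over samples could be computed.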

Additional observations from a re-analysis of the deposited data

How the results depend on the processing

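No paired analysis was possible because only A/A replicate 1 was used, which likewise left no replicate to omit. All 10 members stayed above a floor of 10 reads, and above 3 with the deposited value in place of reads. The median percentile of the members, 97.3, became 99.1 among all genes listed, 96.7 among genes with at least 10 reads, 95.4 when levels were taken per kilobase of exon, 96.3 among the protein-coding genes that had reads, and 97.2 without the 3 genes of the sorting gate. The percentiles among other sets of genes move by construction, since more or fewer genes are compared with. For the level per kilobase the cause was not tested. Of the 45 pairs of members, 43 kept their order per kilobase with the longest transcript as length and 38 by CPM. Using exon bases that no other gene shares could not change the order, since no exon base of a member was shared. A pseudocount of 0.1 in place of 1 CPM moved no member's log2 level beyond its counting error. The members had at least 1209 reads, and with merged exons depth still left the order of *Klra17* and *Ptprc* undecided. With the longest transcripts *Ptprc* stood higher. Depth limited relatives such as *Klra7* more, with 15 reads.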
